A study of Mus musculus with 6 samples.

Results

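The 40 histone genes described here were drawn from RNA-seq of whole testis of adult mice. They are all genes whose symbol in Ensembl release 96 of mouse genome build GRCm38 begins with Hist1h, Hist2h, Hist3h, Hist4h, H2af, H3f3, H1f0 or H1fx and that had at least 10 counts in at least 2 of the 6 libraries. The rule also leaves out H1fnt, Hils1 and any gene starting between 115 and 150 Mb of chromosome 4, but none of the 89 genes with a matching symbol lay in that window. The deposited table holds 55536 genes. Of the 89 matching genes, 49 stayed below the count rule and 3 of these had no count in any library. The members comprise 19 canonical histone genes, 5 testis variants, 10 replacement variants and 6 pseudogenes or non-coding genes. Histone gene symbols stand as that release gives them.

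Testes were collected from 4-month-old males on the inbred FVB/NJ background, which were individually housed, and each library represents 1 of 2 biological replicates of a genotype. WT mice were FVB/NJ. P2KO mice carried a gene-trap allele of Padi2, whose first coding exon gave way to a reporter and selection cassette (LacZ, neomycin). DKO mice carried the same Padi2 allele together with a short CRISPR/Cas9 frameshift deletion in exon 1 of Padi4, and all descended from 1 founder, so DKO stands for 1 line. Both alleles were constitutive, and WT animals carried neither. The libraries were prepared from poly(A)+ RNA and sequenced on both ends.

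Peptidylarginine deiminases (PADs) convert arginine in proteins to citrulline, and the N-terminal tails of histones are among their best known substrates. Histones fall into groups that differ in how their genes are used. Canonical genes stand in clusters, are transcribed with DNA replication, and produce mRNAs that end in a conserved stem-loop in place of a poly(A) tail. Replacement variants are made throughout the cell cycle from ordinary polyadenylated mRNAs. Testis variants are made in male germ cells, where histones are exchanged stepwise before protamines take over the packaging of DNA in elongating spermatids. The comparison of the genotypes addresses whether the transcripts of these PAD substrates differed when PAD2, or PAD2 and PAD4, were disrupted.

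The sequences below show what the genes of each group share beyond their names. The first set consists of the 30 codons after the start codon, which encode the tail in which PADs act, with arginine codons in capitals. They were read from the annotated transcripts on GRCm38.
Hist1h3a: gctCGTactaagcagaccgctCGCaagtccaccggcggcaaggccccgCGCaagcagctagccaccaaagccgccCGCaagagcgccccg
Hist2h3c2: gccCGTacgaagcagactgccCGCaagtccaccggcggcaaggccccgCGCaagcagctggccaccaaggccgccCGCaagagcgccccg
H3f3a: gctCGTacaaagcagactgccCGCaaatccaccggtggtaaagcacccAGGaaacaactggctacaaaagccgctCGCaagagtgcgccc
H3f3b: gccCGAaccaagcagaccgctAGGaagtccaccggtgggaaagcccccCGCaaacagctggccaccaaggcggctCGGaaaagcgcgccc
Hist1h4a: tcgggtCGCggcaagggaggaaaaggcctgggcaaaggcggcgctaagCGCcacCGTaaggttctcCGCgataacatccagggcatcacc
Hist1h4c: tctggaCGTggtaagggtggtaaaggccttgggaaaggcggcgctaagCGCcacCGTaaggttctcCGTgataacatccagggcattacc
Hist1h2bc: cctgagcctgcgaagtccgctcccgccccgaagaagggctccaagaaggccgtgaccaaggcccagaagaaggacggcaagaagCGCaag
Hist1h2ba: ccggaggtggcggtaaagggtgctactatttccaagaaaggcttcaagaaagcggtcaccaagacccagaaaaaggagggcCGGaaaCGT
Counting the codon after the start codon as 1, all 4 H3 genes shown had arginine codons at positions 2, 8, 17 and 26. The same 4 positions were thus held in canonical and replacement genes, although the coding sequences of canonical and replacement H3 members were only 77.1 to 81.5% identical. Both H4 genes had arginine codons at positions 3, 17, 19 and 23. The H2B tails carried far fewer. Hist1h2bc had 1 arginine codon in this stretch, at position 29, and the testis H2B gene Hist1h2ba had 2, at positions 28 and 30.

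The second set is the 3′ stem-loop, which is shown because the libraries were made from polyadenylated RNA and the loop is the end of a canonical histone mRNA that has no poly(A) tail. The 16 capitals mark the match to the letters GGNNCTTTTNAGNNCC, searched on the transcript strand after the stop codon.
Hist1h1c: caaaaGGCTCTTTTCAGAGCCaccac
Hist1h3a: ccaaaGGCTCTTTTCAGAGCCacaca
Hist1h4c: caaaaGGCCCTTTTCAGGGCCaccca
Hist1h1t: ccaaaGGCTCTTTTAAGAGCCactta
H2afx: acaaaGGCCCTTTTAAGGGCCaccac
The pattern occurred in a transcript of 0.33% of 21901 protein-coding genes. It was present in 13 of the 19 canonical members and in 29 of the 45 canonical genes below the count rule. Among the testis variants only Hist1h1t held it, but the annotated transcripts of the other 4 end within 50 bases of the stop codon. Among the 10 replacement variants it was found only in H2afx, whose mRNA is known to end in either way. A poly(A) signal, AATAAA or ATTAAA in the last 50 bases, was annotated in 9 of the 19 canonical members, against 6 of the 45 canonical genes below the count rule and 8 of the 10 replacement variants. Over all protein-coding genes it was present in 77.9%. The annotated transcript ended within 50 bases of the stop codon in 2 of the 19 canonical members and in 13 of the 45 canonical genes below the rule, so neither feature could be fully searched in those. In 7 of the 19 canonical members the annotated transcript ran on for 100 or more bases beyond the loop, as in Hist1h1c. The annotated 1156-nt transcript of Hist1h2bc held no match to the loop pattern, but it is spliced from 2 exons and the intron between them was not searched.

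The library totals ranged from 21939393 to 27306679 counts. In WT the histone members took 0.141% of each library, in P2KO they took 0.148% and 0.138%, and in DKO 0.130% and 0.128%, so both DKO libraries stood lowest. Padi4 had 20 and 43 counts in WT, 11 and 10 in P2KO, and 4 in each DKO library, and was lower in DKO than in WT (log2 fold change −2.94, SE 0.51, edgeR adjusted p = 0.00028). Between DKO and P2KO, which would tell these labels apart, the value was −1.31 (edgeR adjusted p = 0.40). Padi2 had 47 and 64 counts in WT, 100 and 55 in P2KO, and 59 and 83 in DKO. A gene-level count does not show which part of a gene the reads came from, so reads outside the replaced part of Padi2 or the deleted bases of Padi4 check nothing. Padi3 also was lower in DKO than in WT (−0.54, SE 0.15, edgeR adjusted p = 0.035). Padi1 and Padi6 passed no test. All 5 Padi genes lie together in the region of chromosome 4 that the rule leaves out.

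Transcript levels of the histone genes spanned more than 3 orders of magnitude (the plot of levels by class). Levels are given as FPKM, which are counts scaled to library size and divided by the merged exon length in kilobases, averaged over the 6 libraries. Replacement variants accounted for 84.9 to 86.0% of histone counts in each library. Canonical genes accounted for 8.48 to 9.22%, pseudogenes and non-coding genes for 4.38 to 4.69%, and testis variants for 1.01 to 1.32%. The libraries were made from poly(A)+ RNA, while canonical histone mRNAs end in a stem-loop in place of a poly(A) tail. These shares and the levels below thus describe polyadenylated transcripts and not all histone mRNA of the testis.

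**Figure D1:**
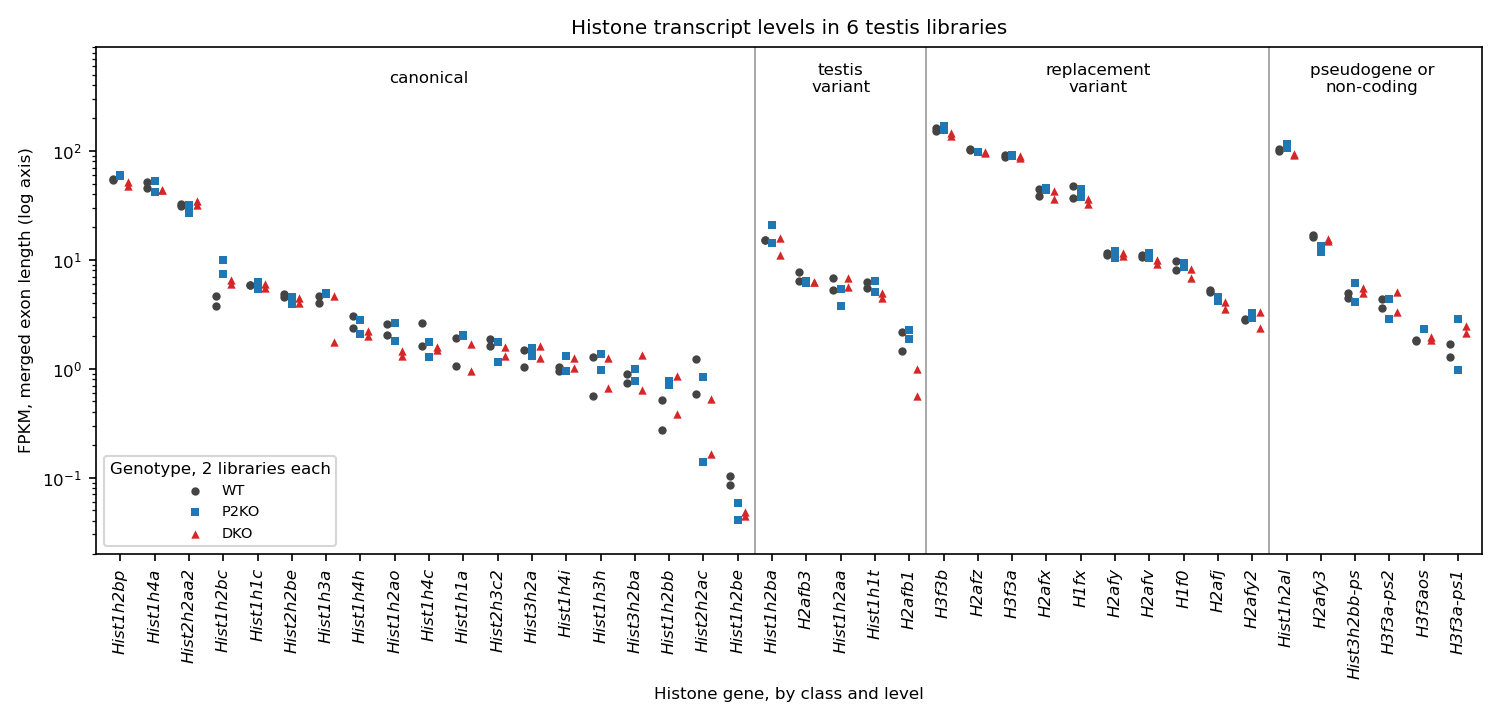
Level of each of the 40 histone genes in each testis library, as FPKM on a log axis. Genes are grouped by class and ordered by mean level within a class. Each point is 1 library, with 2 for each of WT, P2KO and DKO. H3f3b stands highest at a mean of 153 FPKM and Hist1h2be lowest at 0.0633 FPKM.

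Among the replacement variants, the 2 genes for the replacement H3 protein were the first and the third by level. H3f3b measured 161 and 152 FPKM in WT, 169 and 154 in P2KO, and 147 and 136 in DKO. H3f3a measured 88.0 and 91.4 FPKM in WT, 91.1 and 90.1 in P2KO, and 88.9 and 86.3 in DKO. Together these 2 genes supplied 54.9 to 56.5% of all histone counts in a library. H2afz, which encodes the H2A.Z variant of nucleosomes at transcription start sites, lay between them at a mean of 99.3 FPKM. H2afx, whose protein is phosphorylated at DNA breaks and on the sex chromosomes of spermatocytes, had 41.7 FPKM, and the linker histone gene H1fx had 39.3 FPKM. The remaining members were the macroH2A genes H2afy (11.3 FPKM) and H2afy2 (2.93), the second H2A.Z gene H2afv (10.4), the linker gene H1f0 of non-dividing cells (8.48) and H2afj (4.46).

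A few canonical genes carried most of the canonical signal, each from a different core histone family. Hist1h2bp, an H2B gene, ranged from 47.8 to 59.5 FPKM, Hist1h4a from 41.9 to 52.5 FPKM, and Hist2h2aa2, an H2A gene, from 26.6 to 35.0 FPKM. By merged exon length these 3 held 78.9% of the summed canonical level, and the other 16 canonical members lay under 10 FPKM. Divided by coding length instead, the same 3 stayed highest, at 92.8, 81.5 and 42.6. Hist2h2be (30.4), Hist1h2bc (19.45) and Hist1h1c (14.2) then lay above 10. Every 100-base window of Hist2h2aa2 also occurs in transcripts of other genes, so its level is uncertain. Of the 2 canonical H1 genes, Hist1h1c had 5.79 FPKM and Hist1h1a 1.61. The other H2A genes were Hist1h2ao (1.97 FPKM), Hist3h2a (1.38) and Hist2h2ac (0.580). The H2B family further held Hist1h2bc (6.36 FPKM), Hist2h2be (4.38), Hist3h2ba (0.894), Hist1h2bb (0.584) and Hist1h2be (0.0633). The H3 genes were Hist1h3a (4.14 FPKM), Hist2h3c2 (1.55) and Hist1h3h (1.02), and the remaining H4 genes were Hist1h4h (2.41), Hist1h4c (1.72) and Hist1h4i (1.09). Hist1h2ao and Hist1h3h share 92.7 and 92.0% of their windows with other genes, Hist2h3c2 shares 61.6%, and these levels too are uncertain.

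The count rule separated genes that differed little. Just inside it, Hist1h2bb had 10, 10 and 9 counts in its 3 highest libraries and Hist1h2be had 10 in each WT library, and both then failed the filter for testing. Just outside it, Hist1h4k had 13 counts in 1 library and at most 9 in any other, and Hist1h4j and Hist1h4n each reached 10 counts in 1 library. All 49 genes below the rule, of which 45 were canonical, gave only 103 to 151 counts per library in sum.

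The count rule kept 5 of 6 matching testis variants, since H2afb2 had a single count over all libraries. Hist1h2ba, the testis H2B gene, had the highest level of the group at 15.4 FPKM. H2afb3, a short H2A variant of spermatids on the X chromosome, had 6.54 FPKM, and the closely related H2afb1 had 1.55 FPKM. The testis H2A gene Hist1h2aa had 5.63 FPKM and Hist1h1t, the linker histone gene of pachytene spermatocytes, had 5.43 FPKM. Their summed level was 18.1 to 23.6% of the summed canonical level per merged exon length. This share depends on the annotation, since the transcripts of 4 of the 5 end within 50 bases of the stop codon. Divided by coding length instead, Hist1h2ba kept nearly the same level (15.6). The canonical gene Hist2h2be, with a long annotated 3′ end, went from 4.38 to 30.4. The coding sequences of Hist1h2ba and Hist1h2aa were 80.5 to 88.3% and 82.2 to 83.7% identical to the canonical genes of their families. Hist1h1t was 61.6 to 63.0% identical to the canonical H1 members. H2afb1 and H2afb3 were 98.3% identical to each other and 48.9 to 51.0% identical to the canonical H2A members, and 15.7% of their 100-base windows occur in the other gene of the pair. For Hist1h2ba, 27.4% of windows occur in other H2B genes.

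Hist1h2bc was the only histone gene that passed the test in a comparison with WT. This gene of canonical H2B lies on the plus strand at chr13:23684199-23692908 (GRCm38). It had 106 and 132 normalized read counts in WT, 279 and 211 in P2KO, and 184 and 171 in DKO. Both P2KO libraries were above both DKO libraries, which were in turn above both WT libraries, and no genotype overlapped another. Hist1h2bc rose in P2KO against WT (log2 fold change 1.04, SE 0.16, edgeR adjusted p = 8.1e-05), and 0.337% of the 20744 genes tested passed this test, 0.198% higher and 0.140% lower. In DKO against WT it rose by 0.57 (SE 0.16, edgeR adjusted p = 0.042), where 3.22% of genes passed, 2.06% higher and 1.16% lower. Against P2KO, the DKO value was −0.47 (SE 0.15, edgeR adjusted p = 0.12), where 1.21% of genes passed, 0.607% higher and 0.598% lower, and no histone gene did. These 3 comparisons share samples and are not independent. In P2KO against WT the gene passed in all 19 alternative settings, with log2 fold changes of 0.82 to 1.22, but in DKO against WT in only 9 of 19, with 0.43 to 0.74, and the latter call was lost without WT replicate 1 (0.43) or without either DKO library (0.51 and 0.62). In DKO against P2KO it passed in 3 of 18, namely edgeR on this pair alone and without either WT library, and the values ran from −0.65 to −0.25 when 1 library was left out. Where a setting left 1 library in a genotype, the spread came from the other genotypes. A share of 25.4% of the windows of its transcript occurs in other H2B genes.

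**Figure D2:**
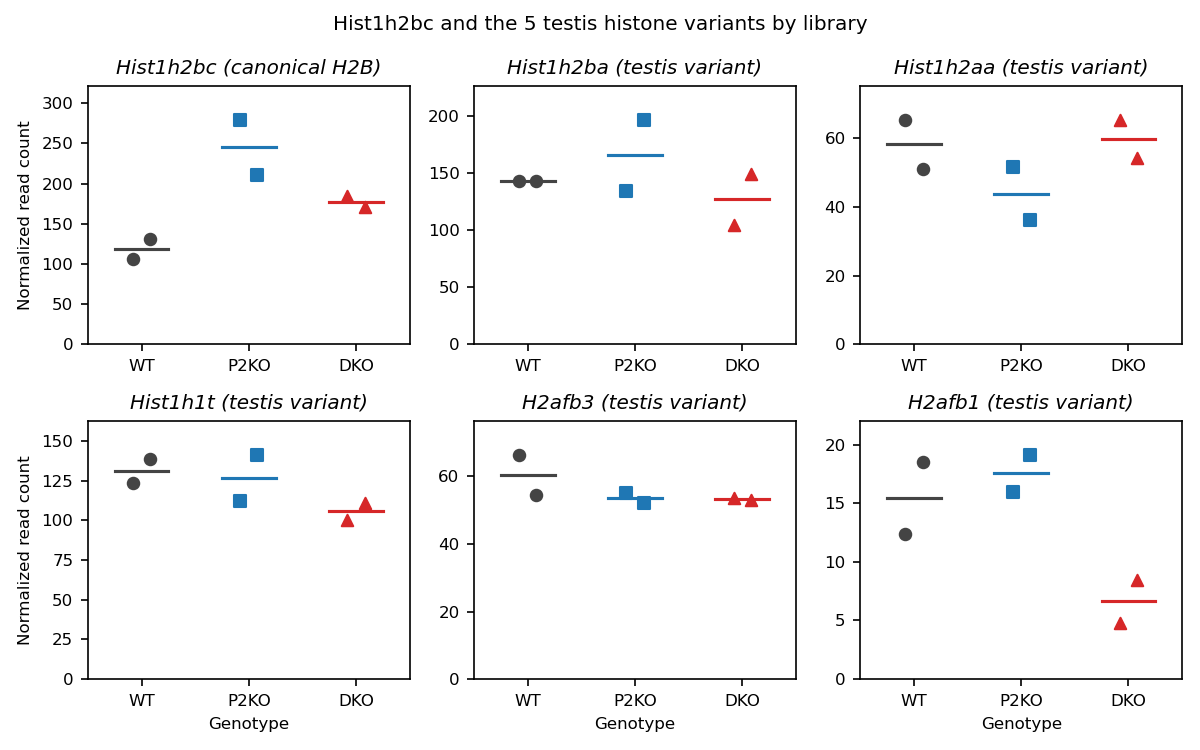
Normalized read counts of Hist1h2bc and of the 5 testis histone variants in each library, with points for the 2 libraries of each genotype and a line at their mean; each panel has its own axis from 0. The genotypes separate completely for Hist1h2bc, at 106 and 132 in WT, 279 and 211 in P2KO and 184 and 171 in DKO.

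The genes around Hist1h2bc were compared in the same way. Of 75 other annotated genes that start within 500 kb, 24 were tested and 9 of these were histone members. In P2KO against WT none of the 24 passed by edgeR, and 1 had an unadjusted p under 0.05, against 8.57% of all genes tested. Their log2 fold changes ran from −0.53 to 0.46. In DKO against WT, 4933404K08Rik was the 1 neighbour of the 24 that passed, beside 3.22% of all genes, and it was lower in DKO (−0.69, edgeR adjusted p = 0.040).

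**Figure D3:**
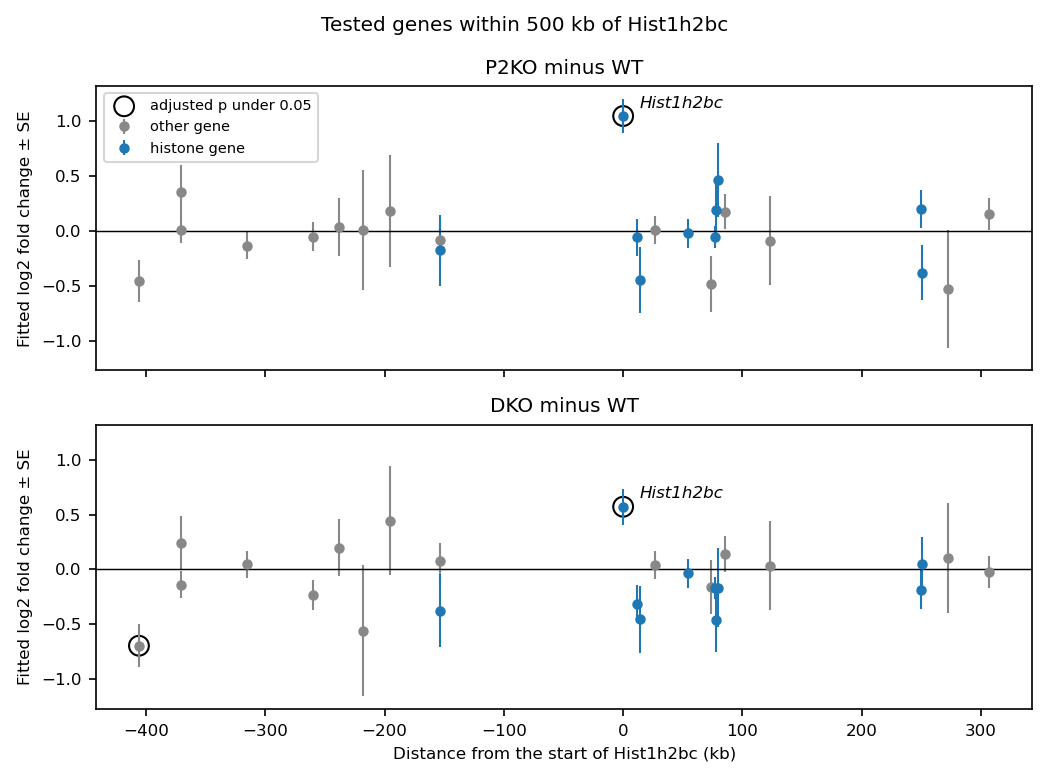
Fitted log2 fold change with its standard error for Hist1h2bc and the 24 tested genes within 500 kb, against distance from the start of Hist1h2bc in kb. Histone genes are blue, other genes grey, and circles mark an edgeR adjusted p under 0.05. Hist1h2bc lies at 1.04 in P2KO and 0.57 in DKO, while the neighbours in P2KO lie between −0.53 and 0.46.

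No testis variant passed the test in any comparison by edgeR, nor by DESeq2 as an alternative. An unadjusted p under 0.05 was reached by none in P2KO against WT, by 1 of the 5 in DKO against WT and by 2 in DKO against P2KO, beside 8.57, 14.1 and 11.8% of all genes. Hist1h2ba had 143 and 144 normalized counts in WT, 135 and 197 in P2KO, and 104 and 150 in DKO, so the genotypes overlapped. Hist1h2aa had 65.3 and 50.9 in WT, 51.4 and 36.2 in P2KO, and 65.1 and 54.1 in DKO. Hist1h1t had 124 and 139 in WT, 113 and 142 in P2KO, and 101 and 111 in DKO. Both DKO values of Hist1h1t lay below all 4 other libraries, with a log2 fold change of −0.32 against WT (SE 0.17, edgeR adjusted p = 0.42). H2afb3 had 66.5 and 54.6 in WT, 55.0 and 52.2 in P2KO, and 53.6 and 53.0 in DKO.

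H2afb1 had the largest fitted difference of the group but the fewest reads. Its raw counts were 11 and 20 in WT, 18 in each P2KO library, and 5 and 8 in DKO. Both DKO libraries were below the other 4, with a log2 fold change of −1.24 against WT (SE 0.53, edgeR adjusted p = 0.25) and −1.40 against P2KO (SE 0.51, edgeR adjusted p = 0.22). H2afb3, whose coding sequence is nearly the same, measured −0.17 and −0.01 in the same comparisons.

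Hist1h2ba and Hist1h2aa are a head-to-head pair, with 305 bases between their annotated starts on chromosome 13, and neither passed the test in any comparison. In P2KO against WT, Hist1h2ba measured 0.20 (SE 0.17) and Hist1h2aa −0.38 (SE 0.25). In DKO against P2KO the values were −0.38 (SE 0.18) and 0.43 (SE 0.25), and in DKO against WT −0.18 (SE 0.18) and 0.05 (SE 0.24). The 250 bases before the start of Hist1h2ba, at chr13:23934157-23934406 on the minus strand (GRCm38.p6, RefSeq), cover most of the space they share. Capitals mark the motifs named below on either strand.
Hist1h2ba: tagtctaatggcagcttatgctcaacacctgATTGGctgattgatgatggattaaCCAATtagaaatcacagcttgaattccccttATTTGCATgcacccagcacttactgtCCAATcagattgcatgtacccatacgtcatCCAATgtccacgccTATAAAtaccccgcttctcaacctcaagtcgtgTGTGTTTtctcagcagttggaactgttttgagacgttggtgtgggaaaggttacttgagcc
This window holds all 4 motifs searched, on both strands and with no motif contained in another. They are the octamer ATTTGCAT, the CCAAT box CCAAT, the TATA box TATAAA, and AAACACA, the box of H1 promoters. RefSeq promoter windows were matched for 29 of the 40 members, among them 16 canonical genes, 5 testis variants and 8 replacement variants. The octamer occurred in 3 of 16 canonical, 2 of 5 testis and none of 8 replacement windows, against 1.60% of 32851 promoters in all. CCAAT occurred in 13 of 16, 5 of 5 and 4 of 8, against 33.8%. TATAAA was found in 7 of 16, 2 of 5 and none of 8, against 12.4%. AAACACA was found in 1 of 16, 3 of 5 and 1 of 8, against 6.20%.

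The replacement variants had log2 fold changes of −0.25 to 0.12 in P2KO against WT, and in DKO against WT all 10 had values below 0. None passed by edgeR as fitted here or by DESeq2 in either comparison, and 4 had an unadjusted p under 0.05 in DKO against WT, beside 14.1% of all genes. Both DKO libraries lay below both WT libraries for 5 of the 10, beside 21.6% of all genes. In DKO against P2KO, which uses the same DKO libraries, all 10 were also below 0, the smallest in size at −0.00056 (H2afy). Both DKO libraries lay below both P2KO libraries for 8, beside 21.6% of all genes, and 4 had an unadjusted p under 0.05, beside 11.8% of all genes. None passed by edgeR there in the fit of all 6 libraries, but H3f3b (−0.19, SE 0.06, edgeR adjusted p = 0.11) passed in several alternatives. H1fx (−0.27, SE 0.09, edgeR adjusted p = 0.16) also passed there with edgeR on this pair alone. H3f3b had 11744 and 11109 normalized counts in WT, 12325 and 11253 in P2KO, and 10717 and 9911 in DKO. Both DKO libraries lay below the other 4, and the log2 fold change against WT was −0.15 (SE 0.06, edgeR adjusted p = 0.21). H1fx had 1425 and 1112 in WT, 1329 and 1132 in P2KO, and 970 and 1072 in DKO. Its value against WT was −0.31 (SE 0.09, edgeR adjusted p = 0.053), the closest to the threshold of the group, and it passed under upper-quartile scaling, with no filter on low counts, without WT replicate 2 and without P2KO replicate 1. H2afj had 238 and 228 in WT, 186 and 204 in P2KO, and 186 and 159 in DKO. Both mutant genotypes were below WT for H2afj, with −0.25 in P2KO (SE 0.14, edgeR adjusted p = 0.62) and −0.43 in DKO (SE 0.14, edgeR adjusted p = 0.088). H1f0 measured −0.24 in DKO against WT (SE 0.11, edgeR adjusted p = 0.32). H2afv, H2afx, H2afz, H3f3a, H2afy and H2afy2 ranged from −0.18 to −0.0030.

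The canonical genes other than Hist1h2bc also gave no call by edgeR, and 2 of them, Hist1h2bp and Hist1h3a, had an unadjusted p under 0.05, both in DKO against P2KO, where 11.8% of all genes did. In that comparison Hist1h2bp passed with edgeR on this pair alone and without WT replicate 2, and Hist1h3a passed without DKO replicate 2. Hist1h2bp had 940 and 960 normalized counts in WT, 1031 and 1020 in P2KO, and 894 and 828 in DKO, so that its genotypes did not overlap. Its value was −0.14 against WT (SE 0.08, edgeR adjusted p = 0.44) and −0.25 against P2KO (SE 0.08, edgeR adjusted p = 0.12). Hist1h3a had 60.8 and 52.8 in WT, 64.8 and 63.9 in P2KO, and 23.0 and 60.4 in DKO. Its value in DKO against P2KO, −0.65 (SE 0.28, edgeR adjusted p = 0.33), thus rested on 1 library that stood apart from the other. Hist1h4a measured −0.06 in P2KO and −0.17 in DKO against WT. Hist2h2ac had the lowest value in both comparisons with WT, at −0.93 and −1.30, from 14 counts or fewer in each library.

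**Figure D4:**
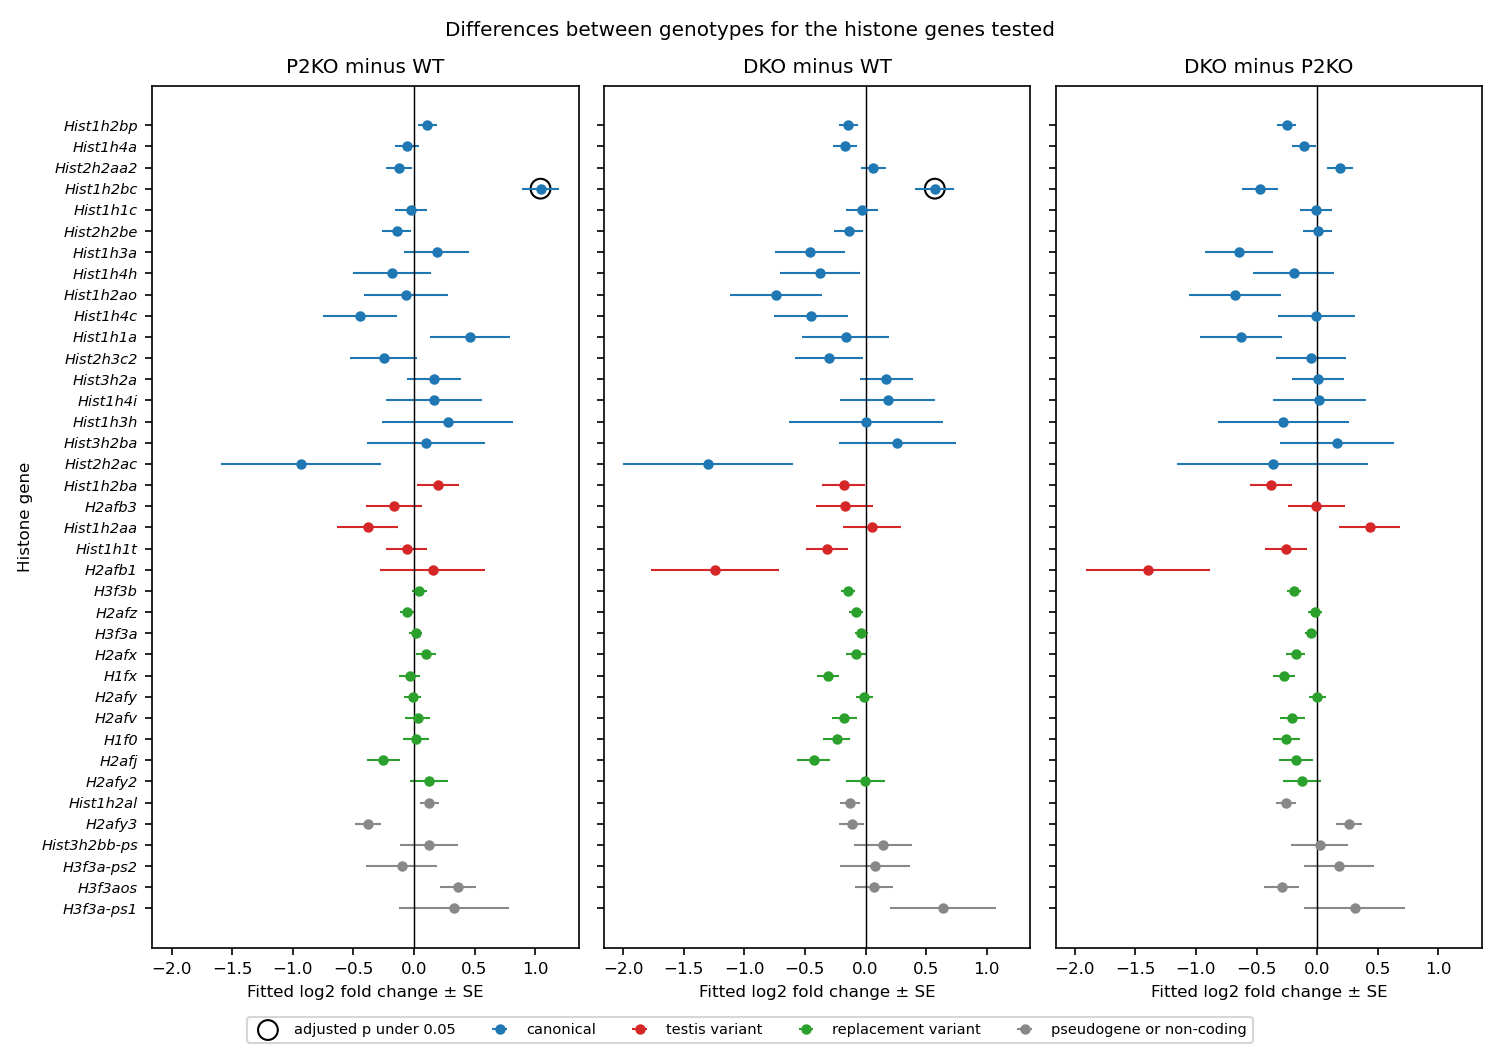
Fitted log2 fold change with its standard error for the 38 histone genes tested, in P2KO against WT, DKO against WT and DKO against P2KO. Genes are coloured by class and ordered by level within it, and circles mark an edgeR adjusted p under 0.05. Only Hist1h2bc is circled, in both comparisons with WT, and all 10 replacement variants lie below 0 in both comparisons with DKO.

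Across the 38 members tested, 20 log2 fold changes were above 0 and 18 below in P2KO against WT, with a median of 0.02 beside 0.0035 for all genes tested. In DKO against WT, 11 were above and 27 below, with a median of −0.13 beside −0.0048 for all genes. In DKO against P2KO, 10 were above and 28 below, with a median of −0.15 beside −0.0028. Both DKO libraries lay below both WT libraries for 18 of the 38 and above for 3, against 21.6% of all genes in each direction. They lay below both P2KO libraries for 17 and above for 2, against 21.6 and 21.1%. Both P2KO libraries were below both WT libraries for 3 and above for 7, against 18.8 and 18.7%. An unadjusted p under 0.05 was reached by 3 members in P2KO against WT, by 6 in DKO against WT and by 11 in DKO against P2KO, beside 8.57, 14.1 and 11.8% of all genes. In bulk tissue, fewer cells of a type and less RNA per cell cannot be told apart.

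The difference between the classes was not tested. In DKO against WT the median log2 fold change was −0.14 for canonical genes, −0.18 for testis variants, −0.11 for replacement variants and 0.07 for pseudogenes and non-coding genes. The canonical median was 0.03 without DKO replicate 1 and −0.35 without DKO replicate 2. In DKO against P2KO the class medians were −0.11, −0.26, −0.18 and 0.10 in the same order, and in P2KO against WT −0.02, −0.06, 0.02 and 0.13. Without P2KO replicate 1 the medians in P2KO against WT were 0.102 for canonical genes and 0.103 for testis variants. The testis median in DKO against P2KO ran from −0.42 to −0.0828 when 1 library was left out. The canonical median in DKO against P2KO was −0.013 without DKO replicate 1, −0.24 without P2KO replicate 1 and −0.037 after a correction for exon length. The pseudogenes and non-coding genes thus had medians above 0 in both DKO comparisons, where the other classes had medians below 0. In each of these comparisons 4 of the 6 were above 0 and 2 below. Their summed level nevertheless was lowest in DKO, at 119.6 and 124.6 FPKM. It was 129.5 and 131.4 in WT and 143.4 and 130.5 in P2KO. Hist1h2al, the highest of them, measured −0.13 against WT and −0.26 against P2KO. Per length, testis variants stood at 21.97 and 20.31 per 100 of canonical level in WT, 18.08 and 23.64 in P2KO, and 18.71 and 20.68 in DKO, so that the P2KO libraries spanned all others.

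Gene length moved with the DKO values across all genes, and most histone genes are short. The median log2 fold change in DKO against WT was −0.13 for the 804 tested genes of up to 500 nt of merged exon, which include 11 members. It was −0.10 for genes of 500 to 1000 nt with 10 members, −0.07 for 1000 to 2000 nt with 9, −0.02 for 2000 to 4000 nt with 7, and 0.05 for longer genes with 1. After a correction for exon length the canonical median in DKO against WT was −0.07 and that of the testis variants −0.08. The part of length in the values of single genes was not tested.

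**Figure D5:**
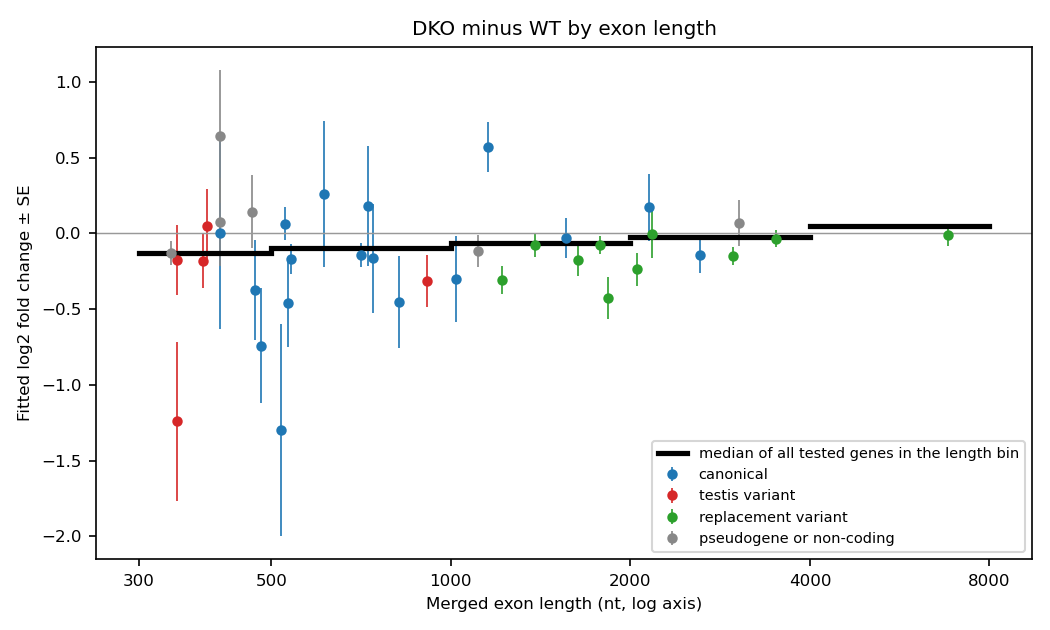
Fitted log2 fold change with its standard error in DKO against WT for the 38 histone genes tested, against merged exon length in nt on a log axis. Points are coloured by class and black lines mark the median of all tested genes in each length bin. The median runs from −0.13 for genes of up to 500 nt to 0.05 for genes over 4000 nt, while Hist1h2bc lies at 0.57.

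Genes that handle histones and histone mRNA were compared from lists. Of 30 histone chaperones and remodellers tested, none passed by edgeR in P2KO against WT, where 1 had an unadjusted p under 0.05. In DKO against WT 3 rose and 1 fell, beside 3.22% of all genes called, and the list median was 0.02. An unadjusted p under 0.05 was reached by 8 of the 30 in DKO against WT and by 6 in DKO against P2KO, beside 14.1 and 11.8% of all genes. Those that rose were Ep400, a subunit of the complex that exchanges H2A.Z (0.35, SE 0.06, edgeR adjusted p = 0.00050), Srcap, the catalytic subunit of a related complex (0.98, SE 0.26, edgeR adjusted p = 0.025), and Supt16, a subunit of the FACT chaperone (0.27, SE 0.07, edgeR adjusted p = 0.013). Rbbp4, a histone-binding subunit of several chromatin complexes, fell (−0.32, SE 0.06, edgeR adjusted p = 0.00069), and it lies in the region of chromosome 4 around the Padi genes that the member rule leaves out. Ep400 rose and Rbbp4 fell also against P2KO, where 1.21% of all genes were called. Of 20 genes for transcription and 3′ processing of histone mRNA, only Tut4, a uridylyltransferase, passed, and it rose in DKO against WT (0.26, SE 0.07, edgeR adjusted p = 0.027), beside 3.22% of all genes called. An unadjusted p under 0.05 was reached there by 3 of these 20, beside 14.1% of all genes. Of 20 genes of DNA replication and proliferation, only Mki67, a proliferation marker, passed, beside 3.22 and 1.21% of all genes called in the comparisons of DKO with WT and P2KO. It rose in DKO against WT (0.35, SE 0.07, edgeR adjusted p = 0.0025) and against P2KO (0.28, edgeR adjusted p = 0.035). An unadjusted p under 0.05 was reached by 4 and 5 of these 20 in the same order, beside 14.1 and 11.8% of all genes.

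Markers of testis cell types moved in part with the DKO libraries. Summed levels of the 10 spermatocyte markers ranged from 589 to 617 FPKM and those of the 10 round spermatid markers from 1005 to 1062 FPKM over the 6 libraries. The 10 spermatogonia markers summed to 57.1 and 58.2 FPKM in WT, 57.5 and 55.9 in P2KO, and 54.5 and 52.9 in DKO, so that both DKO libraries stood lowest, although the median log2 fold change of these 10 genes in DKO against WT was 0.01. The 10 elongating spermatid markers summed to 24831 and 25717 FPKM in WT, 21274 and 23319 in P2KO, and 23120 and 22992 in DKO, so that all 4 mutant libraries lay below WT. The calls below stand beside 0.337% of all genes called in P2KO against WT, 3.22% in DKO against WT and 1.21% in DKO against P2KO. Of the 10 spermatocyte markers, Sycp2 of the synaptonemal complex rose in DKO against WT (0.23, SE 0.06, edgeR adjusted p = 0.012). Of the round spermatid markers, the acrosome gene Spaca1 fell in DKO against P2KO (−0.25, edgeR adjusted p = 0.040). Of the 10 elongating spermatid markers, the protamine gene Prm1 (−0.22, edgeR adjusted p = 0.030) and the transition protein gene Tnp1 (−0.25, edgeR adjusted p = 0.013) fell in DKO against WT, and Tnp2 fell in P2KO against WT (−0.29, edgeR adjusted p = 0.00076). Of the 10 Leydig cell markers, 4 passed in DKO against WT, beside 3.22% of all genes. The steroidogenic genes Star (0.51), Cyp17a1 (0.31) and Cyp11a1 (0.28) rose and Hsd3b1 (−0.46) fell. An unadjusted p under 0.05 was reached there by 6 of the 10 Leydig cell markers, beside 14.1% of all genes. The 10 Leydig cell markers summed to 354 and 360 FPKM in WT, 379 and 356 in P2KO, and 416 and 365 in DKO. None of the spermatogonia, Sertoli, peritubular myoid, macrophage or blood and adipose markers passed by edgeR in any comparison. Of the 39 tested, 8 had an unadjusted p under 0.05 in P2KO against WT, beside 8.57% of all genes, and 6 in each comparison with DKO, beside 14.1% against WT and 11.8% against P2KO. Among them were 5 blood and adipose markers, of which 2 had such a p in P2KO against WT and 3 in DKO against WT, with list medians of −0.29 and −0.40. The full list of 8 summed to 31.3 and 44.8 FPKM in WT, 19.3 and 36.7 in P2KO, and 31.1 and 27.5 in DKO. The part of these markers in the histone values was not tested.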

How the data were processed

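RNA from 6 testes, 2 per genotype, was sequenced as directional poly(A)+ libraries. Per the labels and the study's methods, the authors trimmed reads with Trim Galore and cutadapt, aligned them with STAR to GRCm38 and deposited the raw counts per gene that STAR gives for uniquely mapped reads. Tool versions and the strand column used were not given in the sources used here, so genes that overlap on opposite strands may share counts. DESeq2 is named for the authors' comparisons. The deposited counts were matched by Ensembl identifier to GENCODE annotation of the same build. Genes passing filterByExpr of edgeR 4.0.16 (minimum count 10) were scaled by TMM and fitted with the quasi-likelihood test on all 6 libraries in R 4.3.3. This left 20744 genes, among them 38 of the 40 members, with 3 residual degrees of freedom and a common biological coefficient of variation of 0.0508. P-values were adjusted over all genes by Benjamini-Hochberg, with 0.05 as the threshold. Normalized counts are counts scaled to the mean effective library size, and FPKM divides them by merged exon length. The fit was also run on simulated counts as a check of the code, and the outcome is not reported here. Library totals of 21939393 to 27306679 counts set the precision, and a gene with few counts has the standard error printed beside it.

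An exact permutation test of 2 against 2 libraries cannot pass the threshold, so none was run. The members and gene lists were chosen with earlier results of these data known. Named genes were members called in any comparison, all testis and replacement variants, the 3 highest and 3 lowest canonical genes of each family, the Padi genes and called genes of the lists. Alternatives included other scalings and filters, DESeq2 1.42.0, a prior count of 2, corrections for exon length and GC content, a replicate block, fits of 2 genotypes, omission of chromosome 4 and omission of each library. For levels, division by coding length was the alternative. Same-numbered libraries did not deviate together (correlations −0.0572, 0.0574 and −0.0502), so the numbers were not treated as pairs.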

Additional observations from a re-analysis of the deposited data

How the results depend on the processing

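In P2KO against WT, Hist1h2bc was the 1 histone gene called under every alternative run. The single call in DKO against WT was lost, leaving 0, with a mean of at least 50 counts, a replicate block, DESeq2 (all 6 libraries, or each pair of genotypes alone), edgeR on WT and DKO alone, and omission of chromosome 4, and without a filter on low counts there were 2 (Hist1h2bc and H1fx). Under upper-quartile scaling the 1 call was H1fx. In DKO against P2KO the count of 0 became 1 without a filter, with DESeq2 on DKO and P2KO alone and with length correction plus the replicate block (H3f3b each time). It became 4 with edgeR on DKO and P2KO alone (H1fx, H3f3b, Hist1h2bc and Hist1h2bp). Leaving out each library in turn gave 1 call throughout in P2KO against WT, 0 to 2 in DKO against WT (0 without WT replicate 1 or either DKO library, 2 without WT replicate 2 or P2KO replicate 1) and 0 to 5 in DKO against P2KO (5 without WT replicate 2, 3 without WT replicate 1, 1 without DKO replicate 2). The cause was not tested. Leave-one-out medians of the testis variants ran from −0.133 to 0.103 in P2KO against WT, the highest without P2KO replicate 1. In DKO against WT they ran from −0.391 to −0.177, the lowest without DKO replicate 2, and in DKO against P2KO from −0.420 without P2KO replicate 1 to −0.0828 without P2KO replicate 2. Those of canonical genes in DKO against WT ran from −0.349 to 0.0258. The alternatives were followed for 40 single-gene values, those of members with an unadjusted p under 0.05, of called genes of the lists and of Hist1h2bc. None of these changed sign, while 89 of the recomputed values lost a call and 20 gained one. Of the other 94 values of members, 54 changed sign in at least 1 alternative, and the largest of these was 0.46 in size (Hist1h3a in DKO against WT). The replicate block lowered the calls over all genes from 70, 668 and 250 to 45, 555 and 189 in the 3 comparisons, and same-numbered libraries share only a number. DESeq2 on all libraries called 41, 403 and 162. Without chromosome 4 there were 24 calls in P2KO against WT and without a filter 140. Upper-quartile scaling put 367 of 689 DKO calls higher than WT, beside 428 of 668 with TMM. With 2 mice per genotype, all p-values rest on a spread estimated from few animals, and depth limits the low canonical genes, with a standard error of up to 0.70 in DKO against WT.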

Other observations

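None of the 6 pseudogenes and non-coding members passed the test in the fit of all 6 libraries. Hist1h2al, an H2A gene of 339 nt annotated as a pseudogene, had 102 FPKM, above every canonical gene and every testis variant. It had 836 and 861 normalized counts in WT, 966 and 887 in P2KO, and 765 and 787 in DKO. The genotypes did not overlap, and the log2 fold change was −0.26 in DKO against P2KO (SE 0.08, edgeR adjusted p = 0.12). H2afy3, a pseudogene within Pvt1 on the other strand, had 456 and 443 normalized counts in WT, 369 and 319 in P2KO, and 406 and 424 in DKO. Its value was −0.38 in P2KO against WT (SE 0.11, edgeR adjusted p = 0.14). H3f3aos, which overlaps H3f3a on the opposite strand, had 136 and 133 in WT, 173 and 174 in P2KO, and 147 and 136 in DKO, while H3f3a measured 0.01 in P2KO against WT. The values of H3f3aos were 0.36 in P2KO against WT (SE 0.15, edgeR adjusted p = 0.47) and 0.07 in DKO against WT. The pseudogenes Hist3h2bb-ps, H3f3a-ps1 and H3f3a-ps2 had 4.999, 1.90 and 3.93 FPKM.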
